A study of Mus musculus with 8 samples.

Results

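The genes described here are 35 type I interferon stimulated genes, a set taken by name from what is known of the interferon response. The choice was made with earlier results of these data known. All 35 were found by symbol in the deposited table of 20029 mouse genes, and all 35 passed the filter for testing. They were measured in CD8+ T cells sorted from tumours of mice with and without the gene Pglyrp1, which encodes a secreted protein that binds bacterial peptidoglycan. In these libraries most of the 35 genes were high or low together from mouse to mouse within both genotypes, and none passed the test for a difference between the genotypes.

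Type I interferons are secreted proteins that alert cells to infection and shape the response of T cells in tumours. They bind a receptor made of the Ifnar1 and Ifnar2 chains, which activates the kinases Jak1 and Tyk2 and, through them, a complex that includes Stat2 and Irf9. This complex binds a promoter element, the interferon stimulated response element, in genes whose products bind viral RNA, sense nucleic acids, modify proteins or act at membranes. Interferon gamma, which activated CD8+ T cells make themselves, has its own receptor and acts mainly through a different element, the gamma activated site. Even so, the 2 responses share some genes.

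Each library came from 1000 live cells sorted as CD45+, TCRβ+ and CD8+, taken from a tumour grown under the skin of the flank. The tumour cells, MC38-OVA, are a mouse colon carcinoma line made to carry ovalbumin as a model antigen. The 4 KO mice (libraries KO 1 to KO 4) carried the germline allele B6.129S4-Pglyrp1tm1.1Lky/J, and the 4 WT mice (libraries WT 6 to WT 9) were C57BL/6J. No cell type was singled out by the allele, so host cells other than T cells lacked the gene too, and the labels do not say that KO and WT mice were littermates. The sources used here give neither age nor sex. Each mouse gave 1 library, and the p-values rest on the spread between mice. C57BL/6 mice carry a truncated, inactive copy of Mx1, so the Mx1 values below are of that transcript.

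As a check of the labels, Pglyrp1 itself was listed at 0 in each KO library and at 123 to 209.6 TPM in the WT libraries. TPM here means the deposited value after rescaling every library to a total of 1000000, and log2 differences are KO minus WT of log2(TPM + 1). The T cell genes Cd3g (801 to 1583 TPM) and Cd8b1 (1039 to 1728 TPM) were high in every library. Some libraries also held RNA of other cell types. The summed level of 20 myeloid markers was 7291 TPM in KO 3 and 10397 TPM in KO 4, against 356 to 925 TPM in the other 6, and 19 of the 20 were higher in these 2 than in every other library. The myeloid lysozyme gene Lyz2 was at 902 and 2952 TPM there and at 0 to 47.2 TPM elsewhere, and Cd74 was at 1442 and 1610 TPM against 40.0 to 256 TPM. Of 8 markers of plasmacytoid dendritic cells, a type known for making large amounts of type I interferon, 7 were highest in KO 3. One of them, Klk1, was at 412 TPM in KO 3, 91.3 TPM in KO 4 and 0 to 17.9 TPM elsewhere. The list includes Bst2, which is itself one of the 35 genes. Of 8 dendritic cell markers, 7 were higher in KO 3 and KO 4 than in every other library. The NK cell list, which shares Tyrobp and Fcer1g with the myeloid one, summed to 2389 and 2679 TPM in KO 3 and KO 4. It summed to 233 and 255 TPM in KO 1 and KO 2 and to 74.7 to 109 TPM in WT, so the genotypes were apart. Of its 10 genes, 4 were higher in KO 3 and KO 4 than in every other library. Red cell and platelet genes summed to 2103, 1503 and 849 TPM in KO 1, KO 4 and WT 9 and to 3.60 to 57.6 TPM elsewhere. The neutrophil list reached 130.4 TPM at most, the B cell list 50.8 TPM, the list of CD4+ T cells 238 TPM and that of tumour and stroma 122 TPM. WT 6 and WT 9 stood apart in another way: the summed level of 8 naive and memory T cell genes was 2230 and 1997 TPM in them and 371 to 1321 TPM in the others. Ccr7, one of these, was at 769 and 652 TPM there and at 84.2 to 443 TPM elsewhere. The part of these other cells and cell states in the results below was not tested beyond the values given.

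The interferon stimulated genes varied together between single mice. The mean log2(TPM + 1) of the 35 genes was 5.27, 5.08, 6.72 and 6.10 in KO 1 to KO 4 and 5.46, 5.69, 6.21 and 4.82 in WT 6 to WT 9. KO 3 was highest, WT 8 and KO 4 came next, and WT 9 was lowest, so the genotypes overlapped. The summed level of the set was 4166, 3586, 10367 and 5752 TPM in the KO libraries and 4655, 4366, 8038 and 3140 TPM in the WT libraries, which is 0.314% to 1.04% of all TPM. KO 3 held the highest value for 23 of the 35 genes (15.2% of all genes tested) and WT 8 for 9 (15.6% of all genes). WT 9 held the lowest value for 22 (17.9% of all genes) and KO 2 for 7 (10.5% of all genes). WT 8 was at 5.56 TPM for Lyz2 and 3.82 TPM for the plasmacytoid marker Siglech, against 902 and 2952 TPM and 223 and 47.1 TPM in KO 3 and KO 4. The myeloid list summed to 455 TPM in WT 8, 7291 TPM in KO 3 and 10397 TPM in KO 4. In the same order the plasmacytoid list, which includes Bst2, summed to 672, 1726 and 675 TPM. Bst2 alone was at 576, 776 and 415 TPM. Whether other cells contributed to the level of the set in any of these libraries was not tested. In bulk samples such as these, more cells that express a gene and more RNA per cell cannot be told apart.

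**Figure D1:**
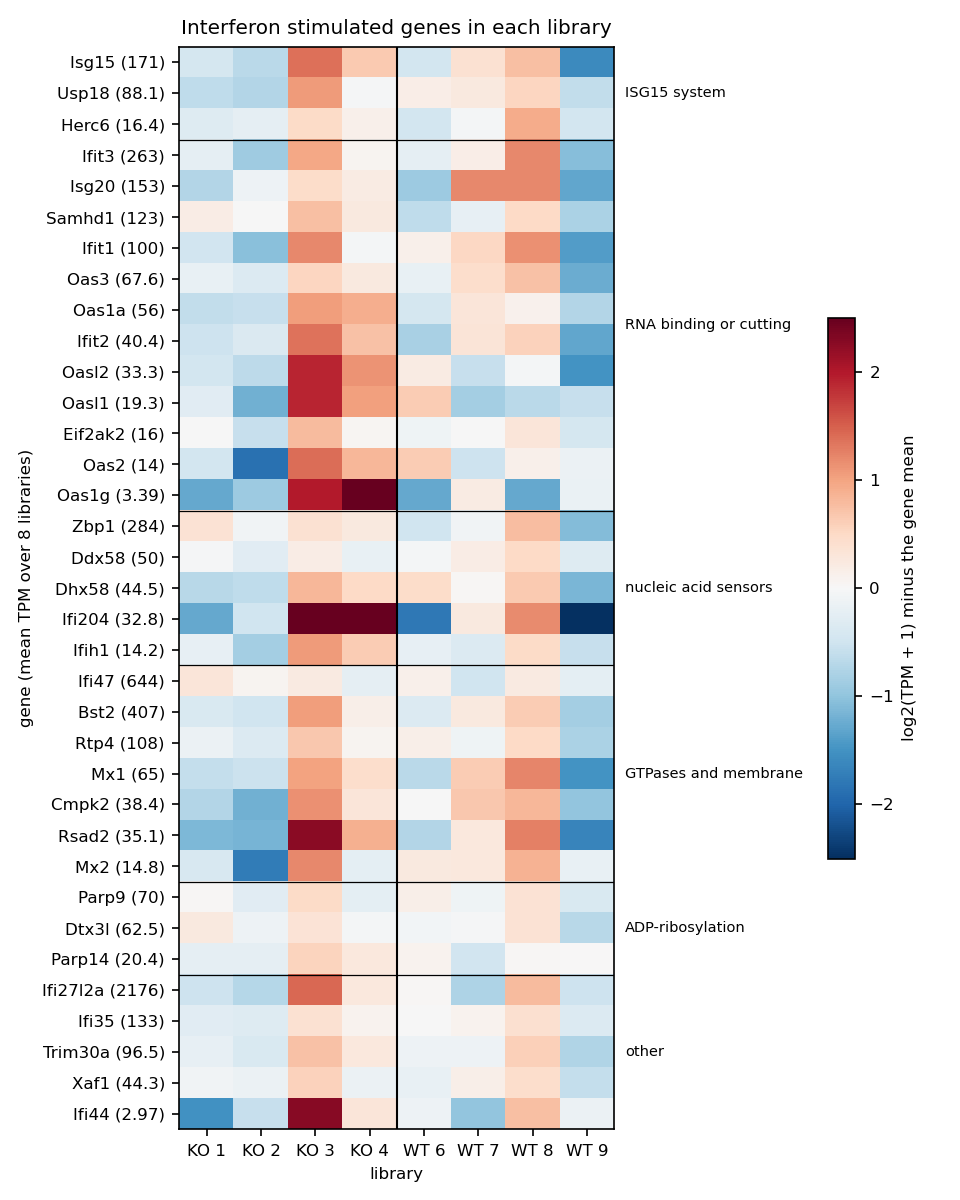
Level of each of the 35 genes (vertical axis, with the mean TPM in brackets) in each of the 8 libraries (horizontal axis), as log2(TPM + 1) minus the gene's mean over the libraries. Colour runs from blue (below the gene's mean) to red (above it) and is capped at 2.5 either way, and the genes are ordered by role. The columns of KO 3 and WT 8 are red for most genes and that of WT 9 is blue.

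Over the 8 libraries, the median Pearson correlation among the 595 pairs of these genes was 0.75, and it was 0.78 after the mean of each genotype was subtracted. The further interferon stimulated genes described below also varied together (0.52 and 0.61), as did the GBP and IRG GTPases (0.56 and 0.52), while over all genes tested the medians were 0.06 and 0.07. These are descriptions over 8 points that share libraries, scaling and cell makeup. Rsad2 followed the mean of the other 34 genes most closely (r = 0.99), followed by Trim30a, Bst2 and Isg15 (each r = 0.97). Ifi47, an IRG GTPase that interferon gamma also induces, followed it least (r = 0.19).

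Promoters of the set often held the response element described above. RefSeq windows from 250 bases before to 50 after the start were at hand for 24 of the 35 genes, in build GRCm38.p6, the same assembly as mm10. The core of the interferon stimulated response element was searched on both strands as the letters GAAA, any 2 bases and then GAAA again. It was present for 12 of the 24 genes (50%), against 3.99% of 27025 genes with a window. The core of the gamma activated site, TTC, any 3 bases and GAA, was present for 7 of the 24 (29.2%), against 9.55% of all genes. It reads alike on both strands, and the 2 motifs may overlap each other. The windows below are the 60 bases, 5′ to 3′ on the gene's own strand, that hold upstream matches of 6 of the 9 genes with one. These 6 are examples picked after their values were seen. Isg15, Ifit1 and Ifit3 were picked for their repeated matches and Rsad2 as the gene closest to the mean of the set. Oas1a and Oas1g were picked for their similar promoters. Capitals mark the response element core, which reads as TTTC where it lies on the other strand. 
Isg15 (chr4:156200856-156200915, minus strand): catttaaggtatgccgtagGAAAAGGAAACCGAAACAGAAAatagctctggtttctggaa
Ifit1 (chr19:34640769-34640828, plus strand): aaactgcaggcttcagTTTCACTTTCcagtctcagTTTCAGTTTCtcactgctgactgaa
Ifit3 (chr19:34583365-34583424, plus strand): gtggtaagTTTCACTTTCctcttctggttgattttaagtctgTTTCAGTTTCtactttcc
Rsad2 (chr12:26456538-26456597, minus strand): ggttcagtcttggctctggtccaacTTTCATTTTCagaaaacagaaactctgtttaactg
Oas1a (chr5:120907526-120907585, minus strand): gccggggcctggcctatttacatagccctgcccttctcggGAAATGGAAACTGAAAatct
Oas1g (chr5:120887614-120887673, minus strand): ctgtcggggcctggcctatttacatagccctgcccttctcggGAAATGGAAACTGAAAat
Isg15 has 3 overlapping matches at -78 to -57 relative to its start, and Ifit1 and Ifit3 have 2 separate matches each. The start used for the Ifit3 window lies inside the span of the gene given below (34583119 to 34588982). The Ifit3 matches are upstream of that start only. The promoters of Oas1a and Oas1g are similar: their 250 upstream bases are 82.8% identical over the alignment. The 12 genes with it had a median KO minus WT difference of 0.18 and the 12 without it 0.20, with 9 of 12 above 0 in each, and the median residual SD was 0.706 and 0.712.

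The ISG15 system tags proteins with the ubiquitin-like protein Isg15. Isg15 (chromosome 4, 156199424 to 156200818, mm10) was at 105, 88.9, 370.0 and 225 TPM in KO 1 to KO 4 and 104, 187, 241 and 46.4 TPM in WT 6 to WT 9. KO 3 exceeded every WT library and KO 2 lay below 3 of the 4, so the groups overlapped (log2 difference 0.45, 95% interval -0.84 to 1.74, limma adjusted p = 0.840). Usp18 removes Isg15 from proteins and restrains the interferon receptor. It was at 51.6, 48.1, 169.6 and 79.1 TPM in KO against 90.2, 96.3, 118 and 51.9 TPM in WT. KO 3 was again the highest, while the other 3 KO values lay below 3 of the 4 WT values. Its log2 difference was -0.16 (interval -1.06 to 0.73, limma adjusted p = 0.930). Herc6, the main ligase for Isg15 in mice, averaged 16.4 TPM with a log2 difference of 0.02. Another gene model of GENCODE M21 holds 24.5% of its 38-base words, so part of its reads may have been assigned there. Whether that model was in the authors' annotation is not known.

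Most of the RNA-binding and RNA-cutting products of the set act on viral RNA. Ifit3 (chromosome 19, 34583119 to 34588982) was at 195, 124, 448 and 239 TPM in KO against 196, 259, 529 and 109.7 TPM in WT. WT 8 exceeded KO 3 for this gene, and the log2 difference was -0.05 (limma adjusted p = 0.989). Ifit3b shares 57.3% of its 38-base words, so reads may have been split between them. Its neighbours Ifit1, which binds RNA with a foreign cap, and Ifit2 averaged 100.5 and 40.4 TPM, with log2 differences of -0.19 and 0.60.

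The Oas enzymes make short oligoadenylates that switch on the RNA-cutting enzyme RNase L. Oasl2 (chromosome 5, 114896926 to 114912245) was at 18.0, 15.7, 97.5 and 56.4 TPM in KO against 29.3, 16.6, 24.3 and 8.26 TPM in WT. Both KO 3 and KO 4 exceeded every other library, and KO 1 and KO 2 lay within the WT range (log2 difference 0.96, interval -0.37 to 2.30, limma adjusted p = 0.645). Oas1g was near the limit of the measurement: 0, 0.302, 8.68 and 15.1 TPM in KO against 0, 1.80, 0 and 1.18 TPM in WT. Its signal also came from KO 3 and KO 4, with a log2 difference of 1.26 (interval -0.75 to 3.28, limma adjusted p = 0.688). Oas1a and Oas1g share 64.4% and 61.3% of their 38-base words, nearly all with each other, so how their reads were divided is uncertain. Oas1a averaged 56.0 TPM, Oas3 67.6, Oas2 14.0 and Oasl1, a relative of the Oas enzymes, 19.3. Their log2 differences were 0.38, 0.13, -0.05 and 0.73.

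Of the other genes of this role, Isg20, an RNA exonuclease, divided the WT mice most clearly. It was at 67.5, 294, 295 and 51.1 TPM in WT 6 to WT 9 and at 76.2, 117, 177 and 147 TPM in KO. WT 7 and WT 8 lay above all KO libraries and WT 6 and WT 9 below them (log2 difference -0.09, limma adjusted p = 0.977). Samhd1 (chromosome 2, 157097534 to 157135096), which breaks down the nucleotides that DNA synthesis needs, had the smallest p of the set. It was at 131, 114.6, 194 and 137 TPM in KO against 74.0, 99.9, 164 and 66.5 TPM in WT. The lowest KO value exceeded 3 of the 4 WT values, but WT 8 exceeded 3 of the 4 KO values. Its log2 difference was 0.57 (interval -0.06 to 1.21, limma adjusted p = 0.574). Eif2ak2, the kinase PKR that halts translation on viral RNA, averaged 16.0 TPM with a log2 difference of 0.13.

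The nucleic acid sensors spread widely in level. Zbp1 (chromosome 2, 173206612 to 173218959), which senses left-handed nucleic acids and can trigger cell death, was at 343, 251, 347 and 317 TPM in KO against 189, 249.6, 453 and 125 TPM in WT. All 4 KO values lay above 3 of the WT values and below WT 8 (log2 difference 0.45, interval -0.30 to 1.21, limma adjusted p = 0.700). Ddx58, the RNA sensor RIG-I, varied little: 47.8, 40.2, 55.9 and 43.3 TPM in KO against 47.1, 55.8, 70.1 and 39.3 TPM in WT. Its log2 difference was -0.16 with an interval of -0.60 to 0.28, which holds neither a 2-fold rise nor a 2-fold fall. Ifih1 (the sensor MDA5) and Dhx58 (LGP2, which modulates both) averaged 14.2 and 44.5 TPM, with log2 differences of 0.32 and -0.01. Ifi204, a DNA-binding protein of the PYHIN family that is abundant in macrophages, had the widest range. It was at 4.50, 8.46, 98.4 and 104 TPM in KO against 2.84, 14.8, 29.2 and 0 TPM in WT. Its values were high in KO 3 and KO 4, the libraries with myeloid markers, and KO 1 and KO 2 lay within the WT range. The log2 difference was 2.05 (interval -0.77 to 4.88, limma adjusted p = 0.645). Other PYHIN genes share 38.9% of its words, so part of these reads may belong to them.

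The GTPases and membrane proteins included one of the steadiest genes and one of the most variable. Ifi47 (chromosome 11, 49076587 to 49096987) was at 787, 668, 737 and 545 TPM in KO against 688, 452, 739 and 537 TPM in WT, a range of 1.74-fold (log2 difference 0.19, limma adjusted p = 0.784). Rsad2 (viperin), which makes a nucleotide that ends viral RNA chains, ranged 17.0-fold. It was at 10.05, 9.67, 113 and 43.8 TPM in KO against 13.4, 27.9, 56.3 and 6.69 TPM in WT, and was chosen for mention after its values were seen. Its neighbour on chromosome 12, the nucleotide kinase Cmpk2, followed the same order in KO: 19.4, 13.6, 73.3 and 40.4 TPM, with 32.5, 52.6, 59.0 and 16.1 TPM in WT. Their log2 differences were 0.43 and -0.25.

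Bst2 (tetherin), which holds budding viruses at the cell surface, was at 285, 265, 776 and 415 TPM in KO against 294, 441, 576 and 205 TPM in WT. KO 1 and KO 2 lay below 3 of the 4 WT libraries, and the log2 difference was 0.17 (limma adjusted p = 0.930). Rtp4, a chaperone of membrane receptors, was at 93.2, 81.6, 164 and 107.7 TPM in KO against 114.6, 95.8, 146 and 59.0 TPM in WT, a log2 difference of 0.13. Mx2, a gene of the dynamin-like GTPase family, had the largest negative difference of the set. It was at 9.36, 3.02, 30.2 and 10.5 TPM in KO against 15.0, 15.3, 24.0 and 11.01 TPM in WT. KO 1, KO 2 and KO 4 lay below all 4 WT values, while KO 3 was the highest of all (log2 difference -0.60, interval -1.80 to 0.60, limma adjusted p = 0.761). Mx1 averaged 65.0 TPM with a log2 difference of 0.16.

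The partners Parp9 and Dtx3l, which attach ADP-ribose and ubiquitin, are divergent neighbours on chromosome 16 and averaged 70.0 and 62.5 TPM. With Parp14 (20.4 TPM) they were the steadiest group: the log2 differences were -0.01, 0.21 and 0.18, and the median residual SD was 0.332. Of the remaining genes, Ifi27l2a, which encodes a small hydrophobic protein, was by far the most abundant of the set. It was at 1315, 1144, 5078 and 2251 TPM in KO against 1919, 1108, 3273 and 1321 TPM in WT. KO 3 and WT 8 led, and the log2 difference was 0.23 (interval -0.88 to 1.33, limma adjusted p = 0.918). Ifi35 was at 106.7, 104, 172 and 139 TPM in KO against 129.6, 139, 173 and 103 TPM in WT, the narrowest range of the set (1.68-fold, log2 difference -0.07). Trim30a, which dampens inflammatory signals, averaged 96.5 TPM, Xaf1, which promotes cell death, 44.3 TPM and Ifi44 2.97 TPM. Their log2 differences were 0.20, 0.09 and 0.25.

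Against this spread between mice, no genotype difference was found. With limma 0 of the 35 genes passed the adjusted threshold of 0.05, where 3 of 10732 genes did (0.0280%). At an unadjusted p under 0.05, 0 of the 35 were higher in KO, where 6.01% of all genes were, and 0 were lower, where 3.07% were. The groups overlapped for all 35, while they were apart for 2.62% of all genes in the higher and 2.40% in the lower direction. The difference was above 0 for 24 of the 35 genes and their median was 0.17, where 55.2% of all genes were above 0 and the median was 0.04. Counted by role, it was above 0 for 8 of 12 RNA-binding genes, 3 of 5 sensors, 2 of 3 genes of the ISG15 system, 5 of 7 GTPase and membrane genes, 2 of 3 ADP-ribosylation genes and 4 of 5 others. The mean over the set was 5.79 ± 0.76 in KO and 5.54 ± 0.58 in WT (SD, n = 4 each), a difference of 0.25, smaller than either SD.

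**Figure D2:**
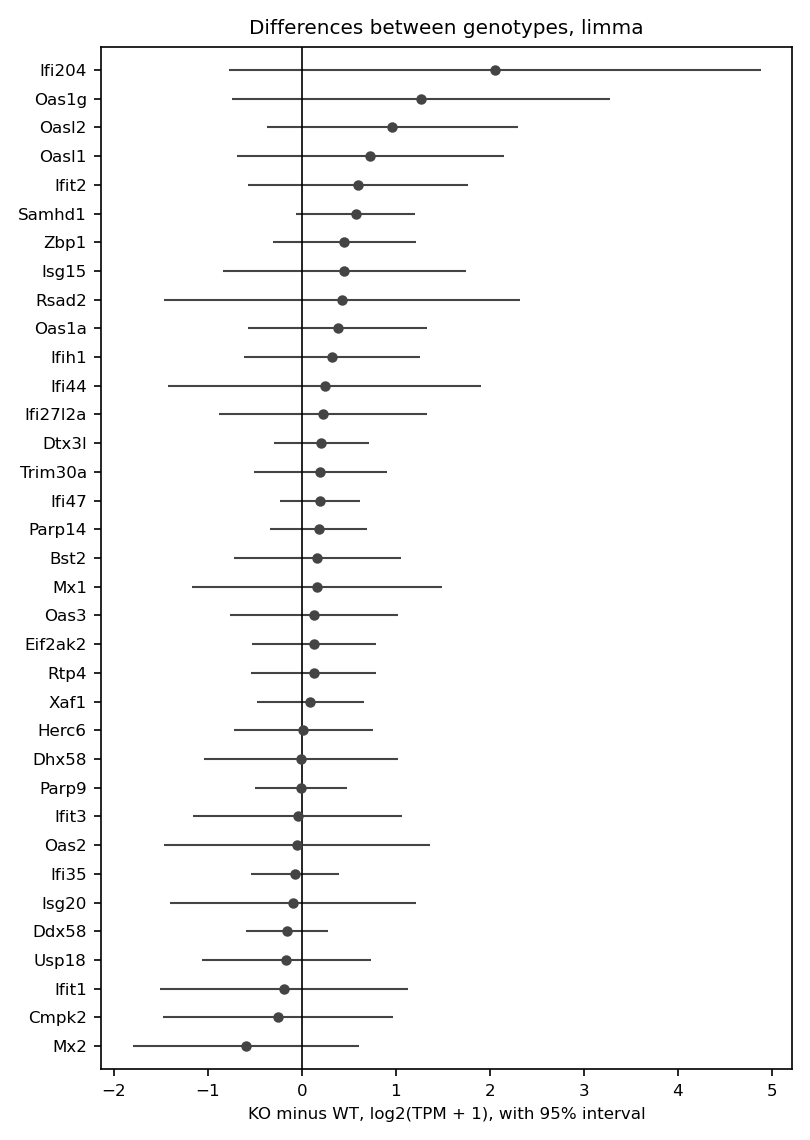
KO minus WT difference of log2(TPM + 1) for each of the 35 genes (points) with its 95% interval from limma (bars), ordered by size. Every interval crosses 0, and that of Ifi204 is the widest.

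These intervals are wide. The median residual SD of the set was 0.725, against 0.367 over all genes tested, and 29 of the 35 genes lay above the latter. A 2-fold rise lay inside the interval for 21 genes and a 2-fold fall for 11. For 11 genes the whole interval lay within 2-fold either way. The counts therefore do not show that the genotypes were alike.

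The direction of the set depended on which libraries were compared. KO 3 and KO 4 were both above the other 6 libraries for 9 of the 35 genes (Ifit2, Oas1a, Oas1g, Oas2, Oasl1, Oasl2, Ifih1, Ifi204 and Parp14), where 14.2% of all genes were. They were both above KO 1 and KO 2 for 29 genes, against 34.4% of all genes. Among the WT mice, WT 7 and WT 8 were both above WT 6 and WT 9 for 23 genes, against 39.0% of all genes. KO 3 and KO 4, the libraries with myeloid markers, were also the 2 KO libraries with the highest mean of the set, and WT 6 and WT 9, the libraries high in naive and memory genes, were the 2 WT libraries with the lowest. Leaving them out therefore pushes a set of genes that vary together toward lower values in KO by the choice itself, and the values without them are descriptions that support no direction. Without KO 3 and KO 4 the median difference was -0.34, and Mx2, Oas2 and Usp18 were lower in KO at an unadjusted limma p under 0.05, 3 of 35, where 2.55% of all genes were. Without WT 6 and WT 9 the median was -0.14, and Isg20 alone was lower at that p, 1 of 35 against 5.88% of all genes.

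Without both pairs, which leaves 2 mice per genotype, the median was -0.71, and the 3 genes above 0 were Ifi47, Oasl1 and Parp14. At an unadjusted limma p under 0.05, 16 were lower in KO, where 8.84% of all genes were. The choice of libraries itself pushes this set that way, so the count supports no direction. By limma 0 of the 35 passed the adjusted threshold. With the mean of the myeloid markers as a covariate in the fit of all 8 libraries, the median was -0.24, 7 genes were above 0 and 0 were at an unadjusted p under 0.05 in either direction. This covariate was 6.35 and 7.08 in KO 3 and KO 4 and 1.94 to 3.46 in the other libraries. It therefore bears on the same KO libraries, the highest for the set, and its result supports no direction either.

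Single libraries mattered as well. Without KO 3 the median difference was -0.11, and without WT 9 it was -0.05. Leaving out any other single library kept it between 0.14 and 0.36. The balance also moved with scaling, together with that of all genes. The median over all genes was 0.04 with the main scaling, -0.07 with quantile normalization and -0.08 when the rescaling left out ribosomal protein genes and the 20 genes of highest level, and the median of the 35 genes was 0.17, 0.06 and 0.03. In the same order, the share of all genes at an unadjusted p under 0.05 was 6.01% higher and 3.07% lower, 5.14% and 5.33%, and 4.66% and 5.78%.

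The genes upstream of the set were measured too. Of 57 genes of interferon signalling, 45 were in the table and 35 were tested, with 26 differences above 0 (55.2% of all genes) and a median of 0.13 (0.04 over all genes). By limma 0 passed the adjusted threshold, and at an unadjusted p under 0.05, 7 were higher in KO and 0 lower, where 6.01% and 3.07% of all genes were. Of 21 interferon genes, 9 were in the table and the others were not analysed here. The type I genes Ifna2, Ifnab and Ifnz were listed at 0 in all libraries, and Ifna7, Ifne and Ifnk never exceeded 2.10 TPM. Ifng, the gamma interferon of T cells, was at 221, 133, 234 and 93.8 TPM in KO against 15.4, 107.5, 53.1 and 20.5 TPM in WT. KO 1, KO 2 and KO 3 lay above every WT value and KO 4 lay below WT 7 (log2 difference 2.08, interval 0.81 to 3.36, limma adjusted p = 0.395).

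The receptor chains Ifnar1 and Ifnar2 averaged 66.6 and 97.6 TPM, with log2 differences of 0.13 and 0.33. Il10rb averaged 89.1 TPM, and the gamma receptor chains Ifngr1 and Ifngr2 averaged 910.4 and 23.0 TPM. Their differences were 0.09, 0.39 and 0.49. Jak1, Tyk2 and Irf9 averaged 207, 38.8 and 98.1 TPM and differed by -0.16, 0.13 and -0.06. Stat2, which serves type I signalling, averaged 36.0 TPM and differed by 0.68 (limma adjusted p = 0.584).

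Among the interferon regulatory factors, Irf7, which amplifies type I interferon production, was also highest in KO 3, WT 8 and KO 4: 151, 119, 444 and 311 TPM in KO against 236, 199, 332 and 124 TPM in WT (log2 difference 0.09, limma adjusted p = 0.969). Irf1, which interferon gamma induces, did not follow this order. It was at 352, 329, 314 and 240.3 TPM in KO against 228, 150.2, 238 and 206 TPM in WT, so the groups were just apart (log2 difference 0.59, limma adjusted p = 0.439). Irf8, a factor of myeloid and dendritic cells, was at 38.5, 102, 411 and 247 TPM in KO against 32.5 to 35.4 TPM in WT (log2 difference 2.01, adjusted p = 0.429 by limma), highest in the libraries with myeloid markers. Irf5, another factor of such cells, differed by 1.81 with 127 and 155 TPM in KO 3 and KO 4 and 6.91 to 23.4 TPM elsewhere. Irf2 and Irf3 averaged 42.3 and 57.3 TPM and differed by 0.11 and -0.03.

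Of the inhibitors, Socs3 was at 173, 125, 129.8 and 138 TPM in KO against 103, 57.6, 84.7 and 115 TPM in WT, with the groups apart (log2 difference 0.68, limma adjusted p = 0.465). Socs1, Ptpn1, Ptpn2, Ptpn6, Pias1 and Pias4 averaged 67.0, 58.2, 73.9, 366, 30.7 and 31.6 TPM, with differences from -0.10 to 0.27. Of the sensing adaptors, Mavs, Tmem173 (STING), Tbk1 and Myd88 averaged 30.7, 108, 39.0 and 86.9 TPM and differed by 0.09, -0.11, 0.27 and 0.42. Ikbke was at 102 and 99.9 TPM in WT 6 and WT 9 and at 33.6 to 47.8 TPM in the other 6 (log2 difference -0.72, limma adjusted p = 0.553). The 2 sensing genes of smallest p were Tlr9, at 21.5 and 16.8 TPM in KO 3 and KO 4 and 0 to 2.43 TPM elsewhere, and Ticam1, which differed by 0.65 (limma adjusted p = 0.527).

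**Figure D3:**
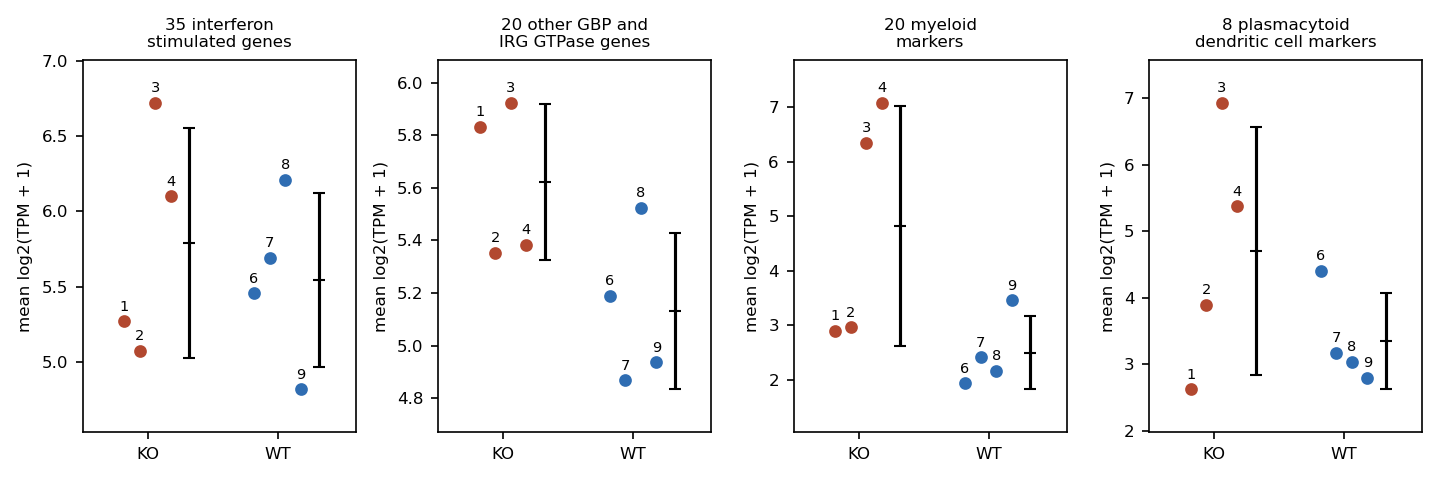
Mean log2(TPM + 1) of 4 gene lists in each library (points, numbered by library), with the mean and SD of each genotype (black bars, n = 4 each); the vertical scales differ and do not start at 0. The 35 interferon stimulated genes are highest in KO 3, WT 8 and KO 4, the myeloid markers in KO 4 and KO 3, and the plasmacytoid dendritic cell markers in KO 3.

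Of a further 55 interferon stimulated genes outside the set, 53 were in the table and 51 were tested, with 27 differences above 0 and a median of 0.03. At an unadjusted p under 0.05, 2 of the 51 were higher and 1 lower in KO, counts near the shares of all genes (6.01% and 3.07%), and 0 passed the adjusted threshold by limma. Of the 2 with the smallest p, neither past the adjusted threshold, Ifi205, a PYHIN gene, was at 132 and 109.8 TPM in KO 3 and KO 4 and at 0 to 4.16 TPM elsewhere. Shisa5 was at 1241 to 1355 TPM in KO against 1470.3 to 1866 TPM in WT (log2 difference -0.36, limma adjusted p = 0.494).

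The GBP and IRG GTPases are defence proteins that interferon gamma induces strongly. Of 20 such genes besides Ifi47, 19 were tested, 18 had a difference above 0 (55.2% of all genes) and the median was 0.38 (0.04 over all genes). By limma 5 were higher at an unadjusted p under 0.05 (6.01% of all genes), 0 were lower (3.07%) and 0 passed the adjusted threshold. Gbp2 was at 286, 159, 321 and 292 TPM in KO against 114, 96.7, 169 and 79.8 TPM in WT. Only KO 2 lay below the highest WT value (log2 difference 1.20, limma adjusted p = 0.350). Gm4951, a gene of low level, differed by 1.61 (limma adjusted p = 0.371). Its size depended on the constant added to the TPM: 3.36 with 0.1 and 0.61 with 5 in place of 1. Without both pairs of libraries 17 of the 19 differences were above 0 (37.7% of all genes) with a median of 0.31, and with the myeloid covariate all 19 were (47.4% of all genes), with a median of 0.54. For the 35 type I genes the medians in these settings were -0.71 and -0.24. The pairs left out are the 2 KO libraries highest and the 2 WT libraries lowest for the 35 genes. For the 20 GTPases the mean log2(TPM + 1) was higher in KO 1 (5.83) than in KO 4 (5.38). It was lower in WT 7 (4.87) than in WT 6 (5.19). The choice itself therefore pushes the medians of the lists apart. The covariate bears on KO 3 and KO 4 too, so neither setting supports a difference between the lists. Whether the lists differ was not tested. The response element core was present in 11 of 11 promoter windows of these GTPases and the gamma activated site in 8 of 11.

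**Figure D4:**
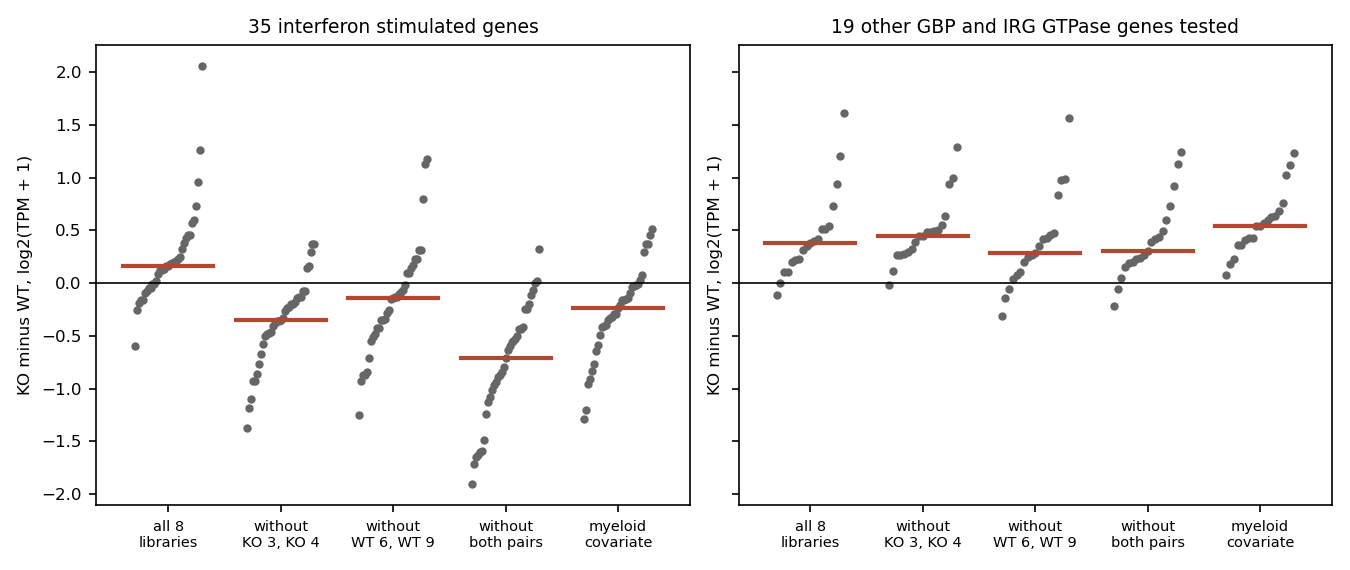
KO minus WT difference of log2(TPM + 1) for each gene (points, ordered by size within a column) and the median (red lines) of the 35 interferon stimulated genes (left) and 19 other GBP and IRG genes (right), with all libraries, without the named libraries and with a myeloid covariate. On the left the median runs from 0.17 with all libraries to -0.71 without both pairs. These pairs are the highest KO and lowest WT libraries of that set but not of the GBP and IRG genes. On the right the median is above 0 in every column.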

How the data were processed

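RNA of 8 sorted CD8+ T cell samples was sequenced as full-length cDNA (modified SMART-Seq2, Nextera XT, pairs of 38 bases), per the labels' protocols. Per the submitters' processing notes, RSEM 1.3.3 and mm10 were used. Which aligner, annotation and scaling the authors used is not given in the sources used here. The deposited unit is a score that the authors call a TPM-normalized count: whole numbers summing to 2223162 to 3342847 per library, with 11935 to 13300 genes above 0. The planned test assumed TPM, so each library was rescaled to 1000000. One deposited unit was then worth 0.299 to 0.450 TPM. Read depth is unknown, so no counting intervals are given.

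The 10732 genes that reached 1 TPM in 4 or more libraries were tested for KO against WT on log2(TPM + 1), which understates the change of low genes, with limma 3.58.1 in R 4.3.3 (mean trend, genotype only) and Benjamini-Hochberg adjustment over all of them. The method was also tested on simulated data with known shifts. A log2 shift of 1 was called in 37.4% of cases, a shift of 2 in 78.7% and a shift of 3 in 92.5%. The simulation drew each gene on its own, unlike genes that vary together. In each run 200 genes drawn from all those tested were shifted. Their median residual SD was 0.367 over all genes tested, against 0.725 for the set. With so many changed genes the adjusted threshold is also looser than in the real data, where 3 genes passed. The shares called are therefore likely too high for the 35 genes. Tables, promoters and shared 38-base words (GENCODE M21 transcripts) were handled in Python 3.11.15 with pandas 2.3.3, numpy 2.4.6 and Biopython 1.88. The authors' annotation is unknown and reads came in pairs, so shared words mark possible overlap only.

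The members and the lists, 272 entries of which 252 matched the table, 8 by a synonym, were chosen with earlier results of these data known, as were the libraries left out in pairs. Values in every library are given for the 10 members of highest mean, the 5 of smallest p in each direction and any with groups apart. Pathway genes are named at a mean of at least 20 TPM, and in each list the 2 of smallest p. One pathway gene that meets this rule is not reported here. The alternatives varied the pseudocount, filter, scaling, limma options, a myeloid covariate and the libraries included.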

Additional observations from a re-analysis of the deposited data

Results flagged for a closer look

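Within a genotype of 4 libraries, 3 values stood far from the other 3 by Dixon's criterion. Oasl1, a relative of the Oas enzymes, was at 23.2 TPM in WT 6 and at 7.65 to 9.44 TPM in the other WT libraries. Parp14, an ADP-ribosyltransferase, was at 13.9 TPM in WT 7 and at 20.1 to 21.1 TPM in the others. Xaf1, which promotes cell death, was at 64.3 TPM in KO 3 and at 38.7 to 40.2 TPM in the other KO libraries. Chance marks about 1 in 20 groups, which is 3.6 of the 72 examined.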

How the results depend on the processing

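In all 22 alternatives run, 0 of the 35 genes passed the adjusted threshold. Without KO 3 and KO 4 and WT 6 and WT 9, 6 genes of the whole table passed, 16 of the 35 fell below an unadjusted p of 0.05 as lower in KO (8.84% of all genes), the median difference was -0.71 and the difference of the set's mean was -0.78. These are the 2 KO libraries highest and the 2 WT libraries lowest for the set's own mean. The choice itself therefore pushes the set toward lower values in KO, and these results support no direction. The number lower at that p was 3 without KO 3 and KO 4 and 1 without WT 6 and WT 9. Leaving out each library in turn, 2 to 5 genes of the whole table passed, 0 to 2 of the 35 were higher (Oasl1 without KO 2, where 6.90% of all genes were, and Samhd1 and Zbp1 without WT 8, where 7.12% were) and 0 to 1 lower (Mx2 without KO 3, where 2.34% were) at an unadjusted p under 0.05, and the difference of the set's mean ran from -0.06 to 0.49. For the 17 genes given in full, 353 of 373 values under an alternative moved by less than 1 residual SD, a wide yardstick here: the sign turned in at least 1 alternative for 14 of the 17, in 8 of 22 for Rtp4, 6 for Bst2 and 5 for Isg15. The cause of these changes was not tested beyond the libraries left out. No paired analysis was possible because no replicate number occurs in both genotypes (1 to 4 in KO, 6 to 9 in WT). Depth is unknown, so the counting error of values near 0, such as those of Oas1g and Ifi44, could not be given.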
